A study of Homo sapiens with 7 samples.

Results

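Strong NKX6.1 regions that lie away from HNF6 and listed GATA6 are described here: 2862 of the 14627 regions of the NKX6.1 list, and of the 86081 regions of all 4 peak lists. They were chosen by their score, which had to reach 89 (the 75th percentile of the NKX6.1 list), and by overlapping neither an HNF6 region nor a listed GATA6 region of day 10 by 1 bp or more. The GATA6 list was partial, with 6285 regions out of 19404 by their peak numbers, and each listed region overlapped HNF6. GATA6 regions away from HNF6 were thus not listed, and regions described here as without GATA6 may overlap an unlisted one. The cells were CyT49, a line of human embryonic stem cells, taken through pancreatic differentiation in culture and profiled by chromatin immunoprecipitation and sequencing, in which DNA bound by a factor is pulled down with an antibody and sequenced. NKX6.1 was profiled on day 13 (labelled PP stage), HNF6 on day 10 and GATA6 on day 10 (both labelled PE stage), and HNF6 also on day 5 (GTE stage). No genotype or added agent distinguishes the groups in the labels, and each group is 1 library of 1 cell line. The labels' extraction text names an NKX6.1 antibody for every library, whereas the antibody given for each sample matches its title. Factor, day and library changed together, so they cannot be told apart when lists are compared, and no p-value is given.

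NKX6.1 is a homeodomain transcription factor that is needed for the formation of insulin-producing beta cells. It is present in the multipotent progenitors of the pancreas, is then lost from cells that become acinar, and is kept in beta cells. HNF6 (ONECUT1) binds DNA through a cut domain and a homeodomain and acts in liver and pancreas progenitors, and GATA6 is a zinc finger factor required for pancreas formation. Factors of a progenitor often share regulatory elements, so regions strongly bound by one factor and not listed for the others are of interest for what that factor binds alone. A region missing from a list may still hold the factor below the level at which a peak was called.

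Strong NKX6.1 regions were less often free of HNF6 and listed GATA6 than weaker ones. Of 3742 regions at or above the score limit, 2862, or 76.5%, overlapped neither partner, against 88.4% of the 10885 regions below the limit and 85.4% of the whole list. Over 20 equal steps of score, the share went from 91.0% in the lowest to 68.0% in the highest. Of the strong regions, 861 overlapped HNF6 and 347 overlapped listed GATA6. Among these, 19 touched GATA6 without touching HNF6 and 328 touched both. These counts follow from the rule and, like the shares, are given as a description. Strong regions were also wider, with median widths of 125 bp without and 144 bp with overlap, against 91 and 99 bp for weaker ones. A wider region has more bases that can touch another list, and the part of width in the difference was not tested. The whole NKX6.1 list meets the rule in 19.6% of its regions. The regions had a median score of 134 (quartiles 106 and 207, highest 1398), and the score of the peak files is the authors' own whole-number value per peak. At the limit itself, 161 of the regions had a score of exactly 89, and the strongest regions left out for their score had 88.

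The 10 strongest of these regions were spread over 6 chromosomes. None of the 10 had another NKX6.1 region within 12500 bp, and 6 had one within 100 kb, the nearest at 20.3 kb. Within 12500 bp the share was 18.4% in the class and 18.0% in the whole NKX6.1 list. Within 100 kb it was 70.3% and 69.5%, so 6 of 10 was near the usual share. The strongest, chr5:5362647-5362841 (hg19, score 1398), is the first-ranked region of the whole NKX6.1 list, and its nearest HNF6 region lay 21.7 kb away. The region at chr7:17151296-17151450 (score 1032) ranked 2 in the list and lay 31.1 kb from HNF6. The region at chr18:67739942-67740143 (score 944) ranked 5 and lay 61.2 kb from HNF6 and 554 kb from a listed GATA6 region. These 3 top-scoring regions were thus 21.7 kb or more from any HNF6 region.

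Others of the 10 came close to HNF6 without touching it. The region at chr7:156361561-156361725 (score 903) lay 194 bp from an HNF6 region with a score of 726, at the 95.6 percentile of the HNF6 list. The region at chr8:71860928-71861092 (score 792) lay 87 bp from an HNF6 region with a score of 165. The region at chr4:174851770-174851962 (score 866) lay 5.55 kb from HNF6, and the one at chr10:73426583-73426786 (score 841) lay 8.23 kb from HNF6. A separation of under 200 bp is shorter than a typical regulatory element, so absence of overlap does not place such a pair in separate elements.

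The rest of the 10 were again distant from HNF6. The region at chr5:53869768-53869932 (score 838) lay 20.3 kb away, the one at chr7:1893494-1893706 (score 803) lay 30.7 kb away, and the one at chr7:75867677-75867851 (score 803) lay 61.0 kb away. Over all 10, the median distance to HNF6 was 21.0 kb, and 2 lay within 1 kb. The number of HNF6 regions within 100 kb ranged from 2, at the regions on chromosome 10 and at chr7:1893494-1893706, to 9, at the region with a score of 903.

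**Figure D1:**
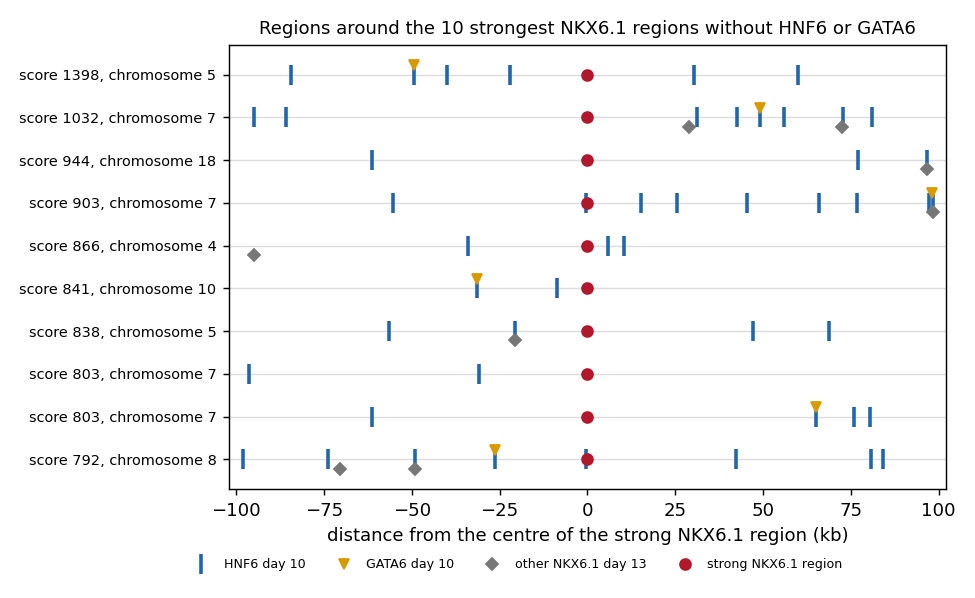
Regions within 100 kb of the 10 strongest NKX6.1 regions that overlap neither HNF6 nor GATA6; each row is 1 strong region (red, at 0 on the axis of distance in kb), with HNF6 regions in blue, listed GATA6 regions in yellow and other NKX6.1 regions in grey. Every row holds at least 2 HNF6 regions, and in the rows with scores of 903 and 792 an HNF6 region lies beside the centre.

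The strong regions away from HNF6 were rarely remote from it, but the HNF6 list held 64919 regions. A list of that size puts many places of the genome near an HNF6 region, and the distance from arbitrary positions was not measured. On the placed chromosomes, where distances were taken between region edges (touching regions count as 1 bp apart), the median distance of the 2857 regions to the nearest HNF6 region was 12.53 kb (quartiles 3.87 and 28.0 kb). An HNF6 region lay within 1 kb of 310 regions, or 10.9% (Wilson 95% interval 9.76 to 12.0). One lay within 5 kb of 819, or 28.7% (27.0 to 30.4), against 38.4% of the whole NKX6.1 list, which also holds the regions that overlap HNF6. Within 50 kb there was an HNF6 region for 2520, or 88.2% (87.0 to 89.3). The intervals here and below cover counting error only, since regions of 1 library are not independent samples.

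At the score limit of 89, the median distance to HNF6 was similar for strong and weaker NKX6.1 regions. The 9613 placed NKX6.1 regions below the score limit that likewise overlapped neither partner had a median distance of 12.4 kb (quartiles 4.31 and 29.1 kb). Within 5 kb of HNF6 lay 27.6% of them (26.7 to 28.5), and the difference from the strong regions was 1.06 percentage points (Newcombe 95% interval -0.804 to 2.96). Within 10 kb the difference was 0.07 points (-1.996 to 2.15), and within 50 kb it was -0.0095 points (-1.395 to 1.30). The strong regions were more often very close to HNF6: within 1 kb lay 10.9% against 9.25%, a difference of 1.60 points (0.362 to 2.92). The median width was 125 bp for the strong regions and 91 bp for the weaker ones, and a wider region has shorter distances from its edges. With the score limit at the 90th percentile, the share within 5 kb of HNF6 was 30.9% above the limit and 27.6% below it, a difference of 3.32 points (0.487 to 6.27). Without regions within 1 kb of HNF6 or GATA6, it was 19.95% against 20.2%, a difference of -0.233 points (-1.97 to 1.57). With the score limit at the 50th percentile, the difference was 0.752 points (-0.821 to 2.33). The interval at 5 kb thus excluded 0 only with the limit at the 90th percentile, and there it overlapped the intervals of the other settings.

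**Figure D2:**
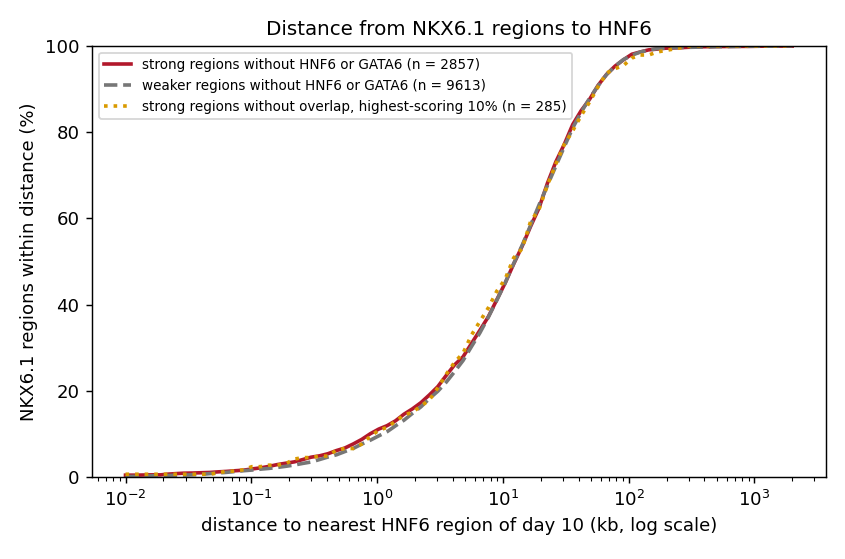
Cumulative share (%) of NKX6.1 regions whose nearest HNF6 region of day 10 lies within the distance on the logarithmic axis (kb), for the 2857 strong regions without overlap (red), the 9613 weaker ones (grey, dashed) and the 285 of highest score (yellow, dotted). The 3 curves run almost on top of each other, with medians of 12.53, 12.4 and 11.9 kb.

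Within the class, the distance showed no steady change with score. Split by score into 4 sets of equal size, from lowest to highest, the median distance to HNF6 was 12.6, 13.9, 11.9 and 11.5 kb. The 285 regions of highest score (at least 317) had a median of 11.9 kb, and 83 of them, or 29.1% (24.2 to 34.6), lay within 5 kb of HNF6. Over 20 equal steps of score through the whole NKX6.1 list, the share of regions without overlap that lay within 5 kb of HNF6 ranged from 23.3% (20.2 to 26.7) to 32.6% (29.1 to 36.4). The lowest share was in step 11 and the highest in step 13, both below the score limit, so the steps formed no steady rise.

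**Figure D3:**
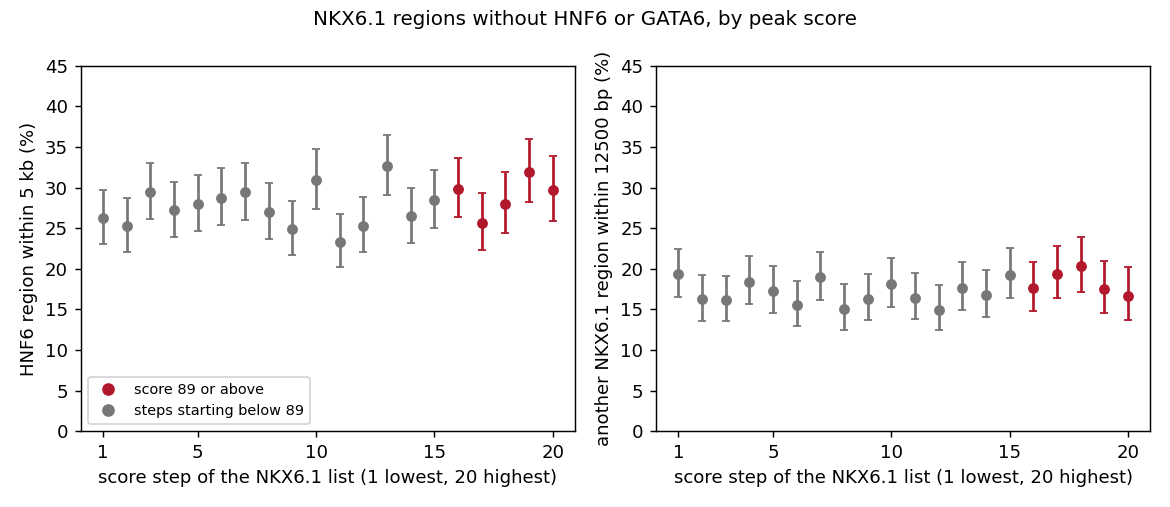
NKX6.1 regions without HNF6 or GATA6 in 20 equal steps of peak score (x axis): share (%) with an HNF6 region within 5 kb (left) and with another NKX6.1 region within 12500 bp (right), with Wilson 95% intervals. Red points are steps that start at a score of 89 or above; they lie between 25.7% and 31.9% on the left and between 16.7% and 20.3% on the right. The grey points span 23.3% to 32.6% on the left and 14.98% to 19.3% on the right.

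The HNF6 regions nearest to these strong NKX6.1 regions were ordinary members of the HNF6 list. Their scores had a median at the 50.7 percentile of that list, against the 84.6 percentile for HNF6 regions nearest to strong NKX6.1 regions with overlap. For regions within 1 kb the median percentile was 56.1, for those at 1 to 10 kb it was 50.7, for those at 10 to 50 kb it was 52.0, and for those beyond 50 kb it was 44.9. The weaker NKX6.1 regions without overlap gave 54.0 within 1 kb and 48.6 in each of the other bands. An HNF6 region at or above the median HNF6 score lay within 5 kb of 17.7% of the strong regions and of 15.9% of the weaker ones, a difference of 1.85 points (0.303 to 3.46). For the highest HNF6 score decile the shares were 3.64% and 3.72%.

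In the class, the share of nearest HNF6 regions that carried listed GATA6 was highest within 1 kb, with an interval that overlapped the one beyond 50 kb. Of the nearest HNF6 regions within 1 kb, 43 of 310, or 13.9% (10.5 to 18.2), overlapped a listed GATA6 region, against 9.66% (9.43 to 9.89) of the whole HNF6 list. The corresponding share beside the weaker regions was 11.8% (9.85 to 14.1), so the intervals of strong and weak overlapped. Within 1 kb, the share was 13 of 75, or 17.3% (10.4 to 27.4), for the lowest-scoring of the 4 sets of the class, and 7 of 87, or 8.05% (3.95 to 15.7), for the highest-scoring, with overlapping intervals. In the class as a whole it was 8.04% (6.47 to 9.95) at 1 to 10 kb, 7.98% (6.61 to 9.61) at 10 to 50 kb and 10.98% (8.07 to 14.8) beyond 50 kb. GATA6 itself lay within 1 kb of 44 strong regions, or 1.54% (1.15 to 2.06), against 1.12% (0.931 to 1.35) of the weaker ones. The median distance to listed GATA6 was 133 kb for the strong regions and 141 kb for the weaker ones. The GATA6 list was partial, as its peak numbers have gaps, and it held only regions that overlap HNF6, so these distances do not describe all GATA6 regions of the cells.

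A small number of strong NKX6.1 regions had no HNF6 region anywhere near. No HNF6 region lay within 100 kb of 64 regions, or 2.24% (1.76 to 2.85), against 2.09% of the whole list and 2.51% (2.21 to 2.84) of the weaker regions without overlap. Of these 64, 40 also had no other NKX6.1 region within 100 kb. They were 1.40% (1.03 to 1.90) of the class, near the 1.11% of the whole list and the 1.27% (1.06 to 1.51) of the weaker regions without overlap. The 64 were a little weaker than the class as a whole, with a median score of 125 against 134.

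The 337 regions more than 50 kb from HNF6 had a median score of 133 and a median width of 124 bp, the same as the regions at 10 to 50 kb. Among the 10 farthest of all, the region at chr16:34714381-34714472 (score 89) lay 2804 kb from HNF6, the regions at chr1:142803883-142803971 (score 122) and chr1:142956912-142956988 (score 97) lay 1109 and 956 kb away, and the region at chr11:55041136-55041224 (score 97) lay 628 kb away. These 10 had a median score of 117.5 and a median width of 91.5 bp, against 134 and 125 bp in the class. A stronger exception was the pair at chr9:137583472-137583629 (score 146) and chr9:137589169-137589301 (score 245), which lay 5.54 kb from each other and 334 and 329 kb from HNF6. Only 3 windows of 1 Mb that held a strong region without overlap held no HNF6 region, namely 1 on chromosome 1 and 2 on chromosome 16. Repeats and assembly gaps of hg19, which could mark such places, were not analysed here.

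Local HNF6 density and the number of strong regions without overlap rose together. Only the 2863 windows of 1 Mb with a region of any day 10 or 13 list were counted, so a window without HNF6 entered only through a listed region of another factor. In the 109 of these windows with 0 to 4 HNF6 regions, a mean of 0.239 such NKX6.1 regions was found per window. The mean was 0.753 in windows with 10 to 19 HNF6 regions, 1.08 with 20 to 29, and 1.68 in the 236 windows with 40 or more. Their share among strong NKX6.1 regions moved the other way, from 91.0% (83.8 to 95.2) in windows with 5 to 9 HNF6 regions to 70.5% (66.6 to 74.1) in those with 40 or more. More HNF6 regions in a window leave less room without overlap, and how much of that decline goes with this was not tested. Windows differ in how much sequence can be mapped, and its part in both trends was not tested. Within 500 kb on either side, the regions had a median of 26 HNF6 regions, the same as the weaker regions without overlap, and strong regions with overlap had 29. Overlapped HNF6 regions are counted in the 29, whereas the rule bars them for the class, so part of this contrast follows from the rule.

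**Figure D4:**
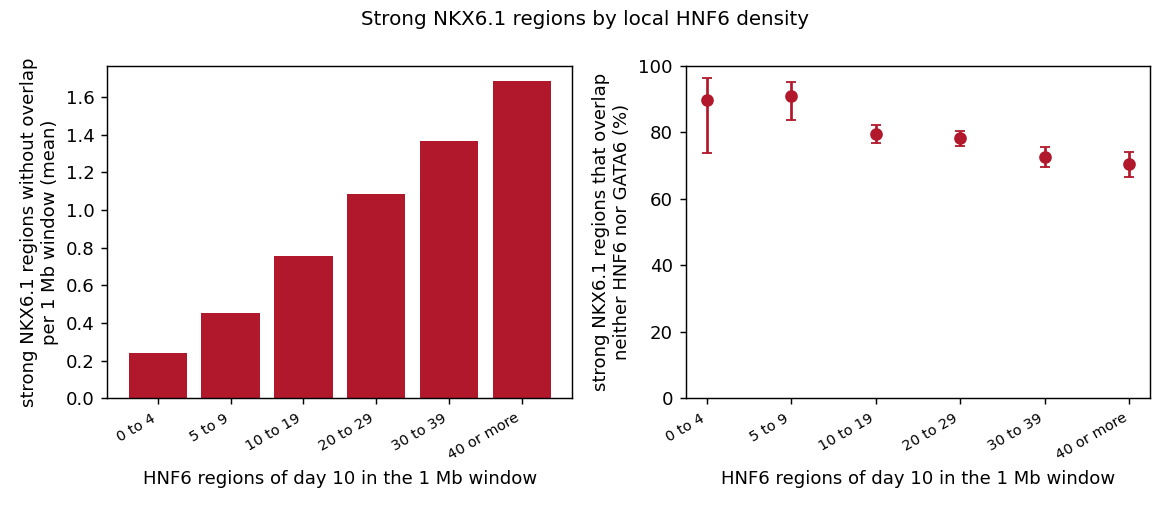
Strong NKX6.1 regions that overlap neither HNF6 nor GATA6, by the number of HNF6 regions in the same 1 Mb window (x axis): mean number per window (left, bars from 0) and share (%) of all strong NKX6.1 regions, with Wilson 95% intervals (right). The mean rises from 0.239 to 1.68 per window while the share falls from about 90% to 70.5%.

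Strong regions away from HNF6 were mostly solitary. Another NKX6.1 region of any score lay within 12500 bp of 525 of the 2857, or 18.4% (17.0 to 19.8), close to the 18.0% of the whole list. The share was 17.1% (16.3 to 17.8) among the weaker regions without overlap, a difference of 1.32 points (-0.26 to 2.95). That difference turned to -0.451 points (-2.70 to 2.02) with the score limit at the 90th percentile, and was 2.14 points (0.484 to 3.88) without regions within 1 kb of HNF6 or GATA6. The share was 21.8% (19.2 to 24.7) among strong regions with HNF6 or GATA6, a difference of -3.44 points (class minus regions with overlap, -6.61 to -0.457). Against those regions the difference was -0.905 points at 1 kb (-2.61 to 0.502) and -2.38 at 5 kb (-4.92 to -0.0949). At 50 kb it was -2.52 points (-6.28 to 1.26), so the interval excluded 0 in 2 of these 4 comparisons. At 5 kb the shares were 9.66% (8.63 to 10.8) in the class and 7.91% (7.38 to 8.46) among the weaker regions, a difference of 1.75 points (0.584 to 3.01). At 1 kb they were 3.64% and 2.69%. At 50 kb they were 48.6% and 46.7%, with a difference of 1.94 points (-0.143 to 4.03). Of 15 shares compared between the class and the weaker regions at the score limit of 89, the interval of the difference excluded 0 in 4: HNF6 within 1 kb, stronger HNF6 within 5 kb, and another NKX6.1 region within 1 and 5 kb. Neighbouring regions count for each other, so these intervals are too narrow.

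The NKX6.1 neighbours of the strong regions without overlap were of much the same kinds as those of the weaker regions without overlap. For the 525 regions with a neighbour within 12500 bp, the nearest one was a weaker region without overlap in 338 (64.4%), another of the class in 106 (20.2%), a weaker region with HNF6 or GATA6 in 55 (10.5%), and a strong one with overlap in 26 (4.95%). The nearest neighbour was a weaker region without overlap for 64.7% (62.4 to 67.0) of the weaker regions without overlap and for 62.5% of the whole list. It was such a region for 57.3% (50.2 to 64.1) of strong and 49.6% (43.7 to 55.5) of weaker regions with overlap. A strong region with overlap was nearest for 15.6% (11.2 to 21.4) of strong regions with overlap, against 4.95% (3.40 to 7.16) of the class. The class had another of its own kind nearest in 20.2%. Weaker regions without overlap had a neighbour of the class in 20.4% of cases (18.5 to 22.4), and its interval overlapped that of the 20.2% (17.0 to 23.8) in the class. When only regions of the class were linked at 12500 bp, 2742 stood alone, 54 groups held 2 and 4 groups held 3, so 120 of the 2862 had a partner of their own class.

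The 4 groups of 3 differed in size and in distance from HNF6. The strongest lay on chromosome 10, where chr10:134499022-134499198 (score 624), chr10:134499376-134499501 (score 131) and chr10:134499759-134499922 (score 226) fell within 0.901 kb, and the last of them ended 46 bp from an HNF6 region. On chromosome 1 the regions at chr1:87801381-87801527 (score 238), chr1:87806689-87806775 (score 122) and chr1:87814024-87814215 (score 385) spanned 12.8 kb and lay 2.82 to 4.32 kb from HNF6. A group on chromosome 3 from 67944266 to 67962478 (scores 144, 170 and 309) reached from 18.6 kb to 0.473 kb from HNF6. The fourth group, on chromosome 15 from 20514026 to 20522744, held scores of only 96, 118 and 117 and lay 30.7 kb or more from HNF6. The strongest pair was chr3:159541706-159541869 (score 510) with chr3:159542209-159542411 (score 450), 0.706 kb from end to end and 15.04 kb from HNF6.

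At the scale of 1 Mb a few windows held several strong regions without overlap. On a fixed grid, 1689 windows held at least 1, 938 held exactly 1 and 19 held 5 or more. The fullest was the window of chromosome 10 from 114000001 to 115000000, with 8 such regions among 22 NKX6.1 regions, 52 HNF6 regions and 9 listed GATA6 regions. Its 8 regions had scores of 97 to 267, the highest at chr10:114035678-114035843 (267), chr10:114515938-114516070 (255) and chr10:114418671-114418947 (243). They lay 2.55 to 17.6 kb from HNF6, and the window held no strong NKX6.1 region with overlap (0 of 8 strong regions). Over all windows with 40 or more HNF6 regions, 70.5% of strong NKX6.1 regions overlapped neither HNF6 nor listed GATA6. This window was named for its count of regions without overlap, so the choice itself favours a lack of overlap there.

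The next windows reached higher scores with fewer HNF6 regions. The window of chromosome 10 from 4000001 to 5000000 held 6 regions among 28 HNF6 regions, led by chr10:4016444-4016618 (score 705), which ranked 35 in the NKX6.1 list. On chromosome 12 from 54000001 to 55000000 the 5 regions had scores of 262 to 608 and lay 10.3 to 39.4 kb from HNF6, and the strongest was chr12:54314960-54315157. On chromosome 11 from 91000001 to 92000000 the 5 regions had scores of 90 to 546, with the strongest at chr11:91376183-91376327. On chromosome 2 from 63000001 to 64000000 the 5 regions included chr2:63562080-63562328 (score 497), 0.306 kb from another of the class. Of the 1689 windows, 484 (28.7%) also held a strong NKX6.1 region with HNF6 or GATA6.

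Regions of the class were narrower than strong NKX6.1 regions with HNF6 or GATA6, with a median of 125 bp (quartiles 107 and 149) against 144 bp (119 and 178). Because width rises with score, widths were also compared within bands of score. At scores of 89 to below 120 the medians were 110 bp in 1134 regions of the class and 117 bp in 259 with overlap. They were 122 and 136 bp from 120 to below 170, 134 and 152 bp from 170 to below 250, and 159 and 176 bp at 250 or more. The class was narrower in all 4 bands, with overlapping quartiles in each. A wider region has more bases that can touch another list, so the rule itself favours narrow regions. Several rows at the same coordinates, which the authors' peak names mark with letters, were present for 25 regions of the class (0.874%) and for 41 with overlap (4.66%).

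Over the chromosomes the class followed the weaker NKX6.1 regions and HNF6 for the most part. Of 24 chromosomes, the interval of the class lay apart from that of the weaker regions without overlap in 2, and apart from that of HNF6 in 2. Chromosome X held 38 regions of the class, or 1.33% (0.971 to 1.82), against 0.759% (0.604 to 0.954) of the weaker regions and 2.05% (1.94 to 2.16) of HNF6. Chromosome 21 held 19, or 0.665% (0.426 to 1.04), against 1.29% (1.08 to 1.54) of the weaker regions. Chromosome 10 held 164, or 5.74% (4.945 to 6.65), against 4.77% (4.61 to 4.941) of HNF6, so these 2 intervals all but touched. Per Mb up to the last listed region, the class ranged from 0.393 regions on chromosome 22 to 1.25 on chromosome 18 among the autosomes. The next-highest densities were 1.23 per Mb on chromosome 5 and 1.21 on chromosome 10. Chromosome 21, at 0.395, and chromosome 19, at 0.406, were close to chromosome 22. Assembly gaps were not taken out of these lengths, and their part in the densities was not tested.

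**Figure D5:**
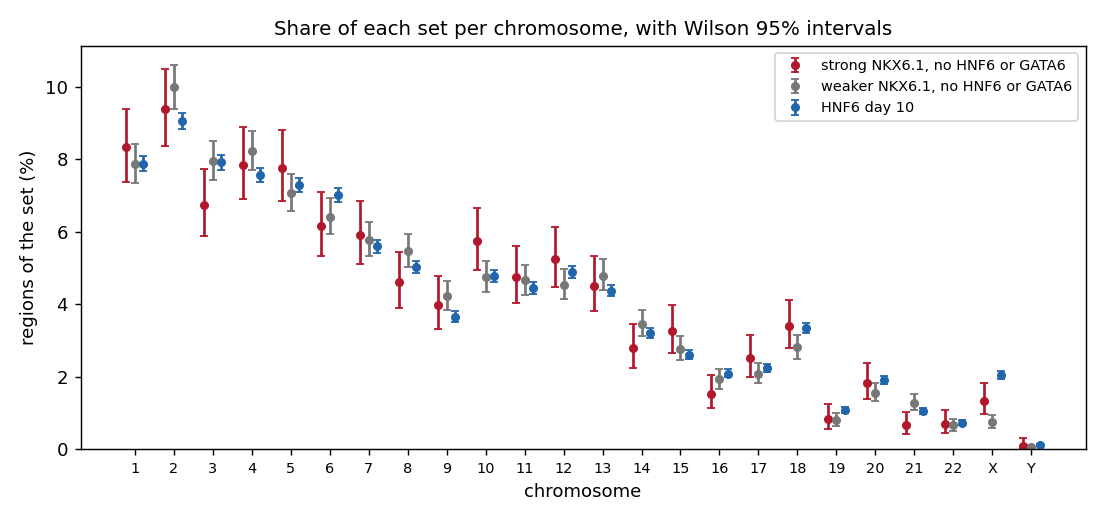
Share (%) of each set of regions per chromosome (x axis) with Wilson 95% intervals: the 2857 placed strong NKX6.1 regions without HNF6 or GATA6 (red), the 9613 weaker ones (grey) and the HNF6 regions of day 10 (blue). The red and grey intervals lie apart on chromosomes 21 and X, and the red and blue ones on chromosomes 10 and X.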

How the data were processed

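Bowtie2 2.3.4.1, MACS2 2.1.1.20160309 and build hg19 were named, with no role or parameter, per the submitters' processing notes. Each library has 1 peak list deposited by the authors. The deposited score of a peak has no unit in the sources used here, so it served only to rank and filter within a list. How deeply each library was sequenced is unknown, and a deeper library yields more regions. The 3 inputs were not analysed here.

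Rows with the same coordinates were merged and the highest score was kept, which left 14627 NKX6.1, 64919 HNF6 (day 10), 6285 GATA6 and 250 HNF6 (day 5) regions. Distances, neighbours and windows used the placed chromosomes, without 5 regions of the class. Positions are 1-based. Python 3.11.15, pandas 2.3.3, numpy 2.4.6 and statsmodels 0.14.6 gave counts with Wilson and Newcombe 95% intervals. Distances were checked against bedtools 2.31.1 and on simulated regions.

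The regions and measures were chosen with earlier results of these data known. The regions named are the 10 strongest, 6 of the 10 farthest from HNF6, the 5 nearest to it, and those of the 5 leading groups and windows; at the score limit only scores are given. Genes, promoters, motifs and sequences at the regions were planned and not run, because no hg19 annotation or sequence was used here.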

Additional observations from a re-analysis of the deposited data

How the results depend on the processing

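The number of strong regions without overlap was 2862 and stayed between 2857 and 2920 under the 6 alternatives that changed the overlap, the lists used, the merging of rows or the unplaced contigs. It was 6096 with the score limit at the 50th percentile and 1066 at the 90th. The median distance to HNF6 stayed between 11.8 and 12.7 kb when the overlap, the score limit or the distance measure was changed. It was 24.4 kb to HNF6 regions at or above their median score, 131 kb to those of the highest score decile, and 14.9 kb without regions within 1 kb of HNF6 or GATA6; fewer HNF6 regions or no near regions lengthen it by construction. The share with another NKX6.1 region near was 18.4% at 12500 bp, 9.66% at 5 kb and 48.6% at 50 kb. It was 16.9% with the score limit at the 90th percentile, below the 17.4% of the weaker regions there, for which the cause was not tested, and 15.3% when neighbours closer than 1 kb were not counted. The last 2 of the distance settings, that of close neighbours, and the addition of the day 5 list or removal of contigs were chosen after seeing the data. The shares at gene starts, with motifs and near listed genes were not run. No paired analysis was possible because each group had 1 library. Unknown depth limits all counts.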

Other observations

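The 5 nearest misses lay 2 to 4 bp from an HNF6 region by the edge distance used. They were chr3:148933351-148933503 (score 90), chr4:86064485-86064610 (score 187), chr6:19841045-19841170 (score 197), chr11:107436832-107436942 (score 89) and chr10:55373759-55373902 (score 139). With midpoints within 200 bp as the criterion for removal in place of overlap, 2894 regions were left. The 5 strong regions without overlap on unplaced contigs had scores of 125 to 198, and 2 of them were on a contig with no HNF6 region.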
